A study of Rattus norvegicus with 12 samples.

Results

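The microRNAs (miRNAs) of normal rat gastric mucosa were described from the 4 libraries labelled normal, out of 12 small RNA libraries in the series. These were chosen by label alone, as all libraries of untreated rats with the genotype given as normal, and the other 8 libraries came from mucosa with induced chronic atrophic gastritis, with or without a herbal formula, and are not analysed here. The rats were kept on ordinary chow in a specific-pathogen-free facility, per the labels' protocols. Strain, age, sex and the region of the stomach sampled are not given in the labels. No label states that the 4 libraries came from separate rats, so each SD below, with n = 4 throughout, is the spread between libraries, which may be technical. Each library held between 10017628 and 11556061 counts over 639 named mature miRNAs. Values are in CPM, each count scaled to a common library total, so that 1 count equals 0.0865 to 0.0998 CPM and a miRNA with no count in a library can be at up to 0.260 to 0.299 CPM there. With 1 group only, no comparison between conditions was made.

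A miRNA is a short RNA cut from a longer hairpin transcript by Drosha in the nucleus and Dicer in the cytoplasm. Of the hairpin's 5′ and 3′ arms (5p and 3p in the names), usually one is loaded into an Argonaute protein and persists, while its partner is degraded. The loaded miRNA pairs with messenger RNAs mainly through its seed, here bases 2 to 8, and lowers their stability or translation, so miRNAs with the same seed are grouped as a family. The gastric mucosa holds surface, gland and endocrine epithelium over a connective tissue layer with fibroblasts, vessels, leukocytes and nerves, and it rests on a thin sheet of smooth muscle. Several miRNAs are known for being made mostly in one of these cell types.

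Sequences were taken from RefSeq (GRCr8) by name, which matched 580 of the 639 miRNAs. The first set is the let-7 family, shown because its 9 members, miR-98 included, held more counts than any other group with a common seed. Capitals mark the seed, and members differed from let-7f-5p at 1 to 4 of 22 positions outside it.
let-7f-5p: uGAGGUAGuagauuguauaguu
let-7a-5p: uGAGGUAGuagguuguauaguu
let-7c-5p: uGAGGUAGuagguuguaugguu
let-7b-5p: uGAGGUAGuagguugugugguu
let-7g-5p: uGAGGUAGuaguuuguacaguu
let-7i-5p: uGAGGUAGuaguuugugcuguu
let-7d-5p: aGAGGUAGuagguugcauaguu
let-7e-5p: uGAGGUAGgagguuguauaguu
miR-98-5p: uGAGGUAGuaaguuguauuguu

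The second set holds the other abundant miRNAs on which the ranking and the cell-type results turn, again with the seed in capitals. No seed is shared within this set.
miR-143-3p: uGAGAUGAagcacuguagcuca
miR-26a-5p: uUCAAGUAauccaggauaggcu
miR-29a-3p: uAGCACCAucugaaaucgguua
miR-21-5p: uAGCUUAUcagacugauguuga
miR-16-5p: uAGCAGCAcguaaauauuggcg
miR-125b-5p: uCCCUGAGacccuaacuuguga
miR-145-5p: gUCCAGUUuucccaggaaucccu
miR-126a-3p: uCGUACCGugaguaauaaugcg
miR-375-3p: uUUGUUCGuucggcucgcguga
miR-141-3p: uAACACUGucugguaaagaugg
miR-200c-3p: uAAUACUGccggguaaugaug
miR-192-5p: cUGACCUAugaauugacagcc
miR-194-5p: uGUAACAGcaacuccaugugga
miR-205: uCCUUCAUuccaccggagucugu
miR-1b: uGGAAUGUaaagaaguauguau
miR-142-3p: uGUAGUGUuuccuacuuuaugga

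First in the ranking stood miR-143-3p, known from smooth muscle and other mesenchymal cells. It measured 192499, 179234, 146289 and 123315 CPM in libraries 1 to 4, a mean of 160334 ± 31408 CPM (SD), or 16.0% of all counts. It ranked first in every library, and library 4 was the lowest. Next came miR-26a-5p (58607 ± 2452 CPM), let-7f-5p (58535 ± 2733), let-7a-5p (51894 ± 3709) and, below them, let-7c-5p (47126 ± 2586), miRNAs made in most tissues. The means of miR-26a-5p and let-7f-5p differed by less than either SD. After these came miR-29a-3p (43572 ± 2346 CPM), known for targeting collagen messages, miR-21-5p (35919 ± 2283), which is abundant in many tissues and raised in inflammation, and miR-16-5p (33530 ± 3163).

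Epithelial and vascular miRNAs filled the middle of the first 20. The epithelial miR-200a-3p reached 23240, 27841, 27884 and 29066 CPM, with library 1 lowest. Its neighbour miR-200b-3p reached 23487 ± 2523 CPM and miR-429 reached 15131 ± 2025. The smooth muscle miRNA miR-145-5p stood at 22850 ± 3440 CPM, the endothelial miR-126a-3p at 19977 ± 1427 and the endocrine miR-375-3p at 17322 ± 3187. Each of these 3 differed from a neighbour in the ranking by less than the larger SD of the pair, so their order is not settled by 4 libraries. The remaining members of the first 20 were miR-125b-5p, let-7b-5p, miR-29c-3p, let-7g-5p, miR-125a-5p and miR-30a-5p, with means between 28455 and 12576 CPM. Ranking each library alone kept 18 to 20 of the same 20 miRNAs.

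**Figure D1:**
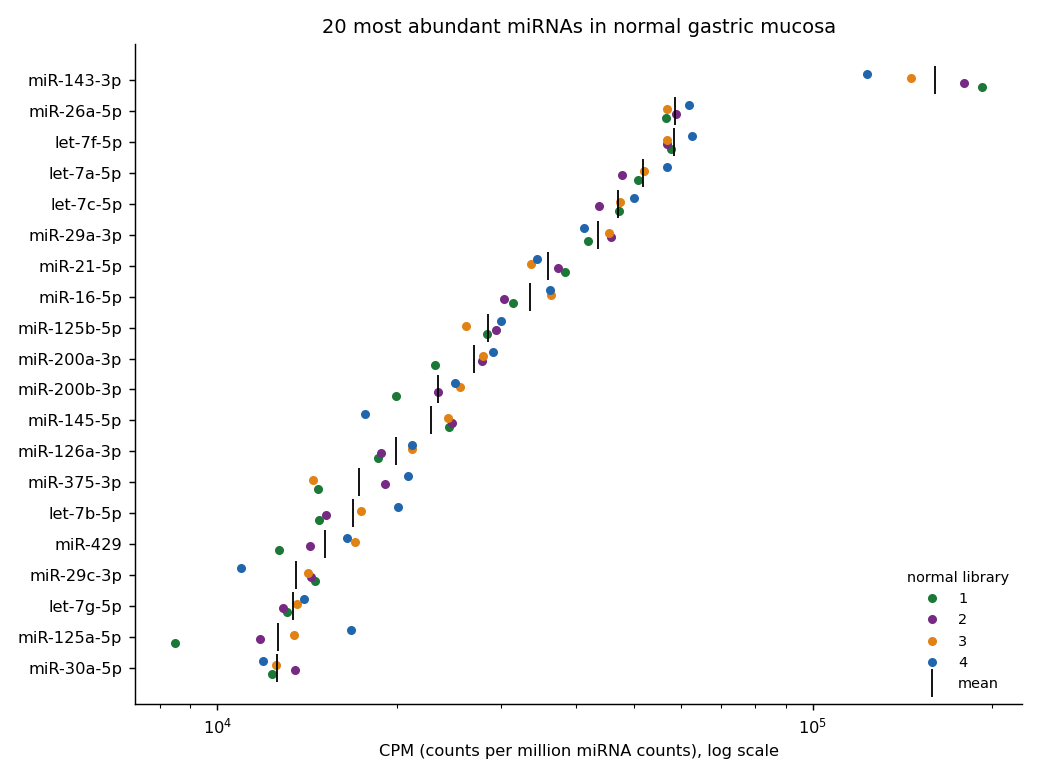
CPM on a log axis of the 20 most abundant miRNAs, with 1 point per normal library and a bar at the mean. miR-143-3p lies between 123315 and 192499 CPM, to the right of all others in each library, and miR-125a-5p spreads from 8497 to 16793 CPM.

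Counts were concentrated in few miRNAs. The first 5 held 37.6% of all counts, the first 10 held 54.5% and the first 20 held 71.3%. To reach 50% of counts 9 miRNAs were enough, and 46 and 119 reached 90% and 99%. For a single library the Wilson 95% interval of any share among the first 20 extended at most 0.0244 percentage points to either side, so counting error was small beside the spread between libraries there. At the other end, 611 miRNAs had a count in some library and 497 in every library, with a median of 6.66 CPM over the 611. In every library 260 miRNAs reached 10 CPM, 138 reached 100 CPM, 73 reached 1000 CPM and 21 reached 10000 CPM. A further 28 had no count in any, which allows up to 0.0693 CPM over the 4 libraries together. Of the 114 seen in some libraries only, 92 never passed 3 counts, so that their absence from a library was not distinguishable from low sampling at this depth. The highest count among the 114 was 12.

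Grouped by seed, the 580 miRNAs with a sequence formed 483 families, of which 419 had a single member in the table and 16 held over 1% of counts. The let-7 family led with 20.96%, 20.13%, 21.33% and 23.09% of all counts in libraries 1 to 4, a mean of 21.4 ± 1.25%. These miRNAs are best known for promoting differentiation and are abundant in most adult tissues. It was above miR-143-3p, the second family by share, in each library, and the gap was narrowest in library 1, where miR-143-3p held 19.2%. Within the family, let-7f-5p gave 27.4% of the counts, let-7a-5p gave 24.3% and let-7c-5p gave 22.1%. let-7b-5p gave 7.88 ± 0.71%, and miR-98-5p was last with 0.396 ± 0.025%. let-7f-5p and let-7a-5p differ at 1 base, as do let-7a-5p and let-7c-5p, and no source used here says how reads that fit several members were counted, so the split inside the family is uncertain.

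The miR-29 family, which targets collagens, followed with 6.57 ± 0.42% over 3 members, miR-29a-3p giving 66.3% of it. miR-29a-3p and miR-29c-3p differ at 1 base, so their split is uncertain as well. The miR-26 family held 6.48 ± 0.26%, of which miR-26a-5p gave 90.5%. The miR-125 family held 4.12 ± 0.41%. Inside it the balance varied: miR-125a-5p gave 23.0%, 28.6%, 33.8% and 35.9% of the family in libraries 1 to 4 and miR-125b-5p nearly all of the rest. The 2 members differ at 7 of the first 22 bases. The miR-16 family, known for restraining the cell cycle, held 3.96 ± 0.41% over 5 members and miR-16-5p gave 84.7% of it.

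Families with 1 listed member followed closely, namely miR-21-5p with 3.59 ± 0.23%, miR-145-5p with 2.28 ± 0.34% and miR-126a-3p with 2.00 ± 0.14%, and with the 4 matched members of the miR-30 family (2.87 ± 0.12%) they closed the first 10. These 10 families held 69.3 ± 1.95% of counts. The 59 miRNAs without a matched sequence are outside these families and held 8.71 ± 0.90% of counts, miR-200a-3p, miR-200b-3p and miR-429 among them. Alone, miR-200a-3p held 2.70% and miR-200b-3p 2.35%, each above miR-145-5p and miR-126a-3p. The first 10 families by seed therefore depend on which names were matched. By name instead, miR-200a-3p, miR-200b-3p and miR-200c-3p together held 5.32 ± 0.55% and ranked below the miR-26 family, and 5 miR-30 members held 4.07 ± 0.19%. Grouping by name leaves miR-429 and miR-141-3p out of the miR-200 group.

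**Figure D2:**
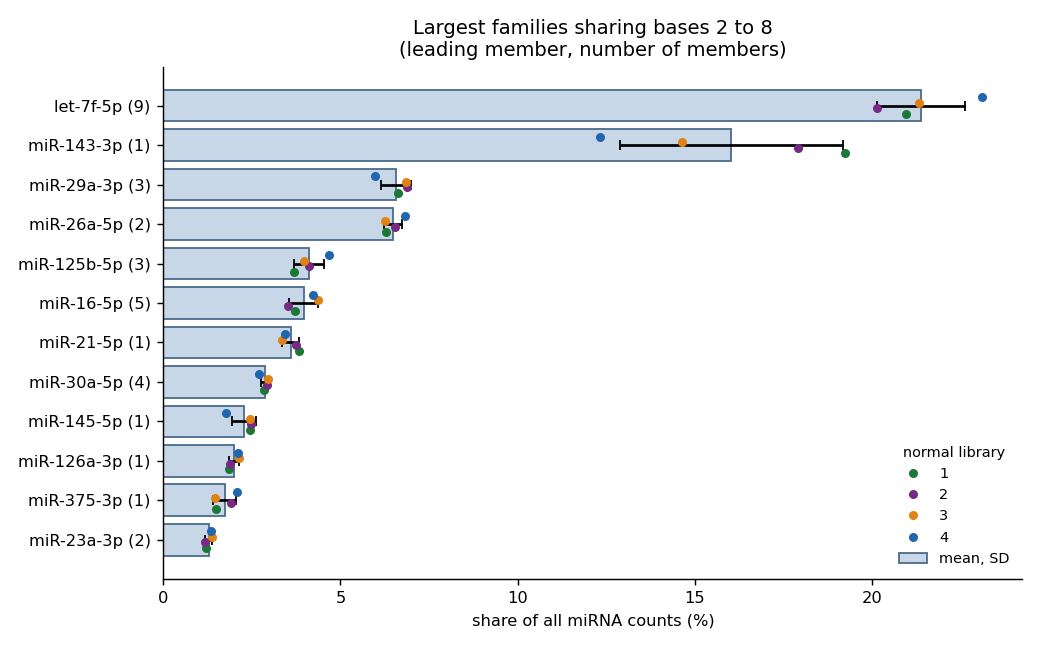
Share of all miRNA counts in percent for the 12 largest families by seed, among miRNAs with a matched sequence. Families are named by the leading member with the number of members. Bars are means, whiskers the SD and points the 4 normal libraries; let-7 reaches 21.4% and miR-143-3p has the widest spread, from 12.3% to 19.2%.

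Abundant miRNAs shared 2 features that the ranking did not use. Uracil was the first base of 37.6% of the 580 miRNAs with a sequence and of 49.1% of the 234 among them at 10 CPM or more, but of 85.7 ± 1.08% of their counts. Adenine, cytosine and guanine began 6.96%, 3.97% and 3.41% of counts. A length of 22 bases was found in 49.1% of these miRNAs and 80.2 ± 0.82% of their counts. Argonaute proteins are known to hold a 5′ uracil well. miR-143-3p and 8 of the 9 let-7 members begin with uracil, as most of the printed sequences do. Among the printed sequences let-7d-5p, miR-145-5p and miR-192-5p do not.

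Arm use was examined in the 247 hairpin names with both arms in the table, pooling genomic copies of the same name. Of these, 204 had at least 10 counts in every library. The 5p arm was dominant, meaning above 50% of the hairpin's counts in the mean, in 115 and the 3p arm in 89. Most hairpins were one-sided: the dominant arm held a median of 98.6% of counts, at least 90% in 147 hairpins and at least 99% in 88. In 30 hairpins it held under 75%. Over all listed miRNAs, 54.3 ± 2.35% of counts came from names with 5p, 42.6 ± 2.36% from names with 3p, and 3.12 ± 0.15% from names without an arm. Libraries 1 and 4 marked the ends of the 5p share, at 52.3% and 57.4%.

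The hairpins of miR-143 and miR-140 show a one-sided and a balanced case. They are printed from RefSeq (GRCr8) with both mature arms in capitals, Mir143 at chr18:57371349-57371453 on the minus strand and Mir140 at chr19:52375293-52375391 on the plus strand.
Mir143: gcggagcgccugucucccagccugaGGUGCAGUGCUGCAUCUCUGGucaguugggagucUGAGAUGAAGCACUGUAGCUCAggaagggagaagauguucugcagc
Mir140: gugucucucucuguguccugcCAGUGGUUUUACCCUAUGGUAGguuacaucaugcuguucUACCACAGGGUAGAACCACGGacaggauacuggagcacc

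In the miR-143 hairpin the 5p arm held 1.09%, 0.981%, 1.18% and 0.955% of counts in libraries 1 to 4, a mean of 1.05 ± 0.10%. Even so, miR-143-5p stood at 1707 ± 383 CPM, above many dominant arms. The neighbouring miR-145 hairpin had the opposite polarity, with 99.3 ± 0.079% from 5p. Among hairpins with a mean of 100 CPM or more, those of miR-100, miR-155 and miR-135a had no count of their 3p arms in any library. Over the 4 libraries together their 5p arms were at least 8516-fold, 6549-fold and 2991-fold higher than the 3 counts that zero allows. Deeper counted hairpins had a few counts of the minor arm and larger measured ratios. The miR-16 hairpin gave 9 counts of 3p against 1451559 of 5p, miR-375 gave 12 of 5p against 755334 of 3p, and miR-26a gave 58 of 3p against 2541263 of 5p.

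The miR-140 hairpin, known from cartilage and other mesenchymal cells, gave 55.2%, 48.2%, 46.4% and 40.2% of its counts from 5p. Its dominant arm therefore changed between library 1 and the others, and the Wilson 95% intervals of library 1 (53.9% to 56.6%) and library 4 (38.9% to 41.5%) did not overlap. The hairpin of miR-362 gave 39.1%, 48.7%, 44.9% and 53.0% from 5p, with library 4 alone above 50%. That of miR-345 gave 54.3%, 50.8%, 44.5% and 44.3%, so libraries 1 and 2 were above 50% and libraries 3 and 4 below it. These 3 were the hairpins of 100 CPM or more, out of 125, whose dominant arm differed between libraries. The interval of library 2 included 50% for miR-362 (46.7% to 50.7%) and miR-345 (48.2% to 53.4%).

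Other balanced hairpins kept one dominant arm in each library. The 5p arm held 56.7 ± 2.18% in miR-384, 60.5 ± 2.25% in miR-423 and 65.2 ± 2.66% in miR-1843a. The widest range among the 125 was in miR-151, named after its values were seen, with 77.4%, 77.6%, 70.2% and 57.2% from 5p, library 4 standing below the rest. The median range over the 125 was 0.309 percentage points, where the dominant arm held a median of 99.2% and left little room for a wider one. Several abundant hairpins kept a sizeable minor arm with little spread, named here after their values were seen. These were 17.5 ± 0.81% from 5p in the endothelial miR-126a, 14.3 ± 0.59% in the mesenchymal miR-199a and 13.6 ± 0.65% in the leukocyte miR-142.

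The proliferation-linked hairpins of miR-17 and miR-106b had their 3p arms dominant, with 27.2 ± 2.85% and 18.2 ± 4.20% of counts from 5p. They were picked after their values were seen. Their 5p arms differ from those of relatives at few positions (miR-17-5p from miR-20a-5p at 2 of 23 and from miR-106b-5p at 3), and miR-20a-5p was far higher at 1687 ± 189 CPM against 56.5 ± 4.52 CPM for miR-17-5p. Whether reads were shared out among these 5p arms was not tested, so both arm shares are uncertain.

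In 180 of the 204 hairpins both arms had a RefSeq sequence. The dominant arm began with uracil in 102 of them (56.7%) and the minor arm in 28 (15.6%). Only the dominant arm began with uracil in 84 hairpins and only the minor arm in 10, while both did in 18 and neither in 68. The Mir140 sequence above, nearly balanced, has cytosine first on 5p and uracil first on 3p.

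**Figure D3:**
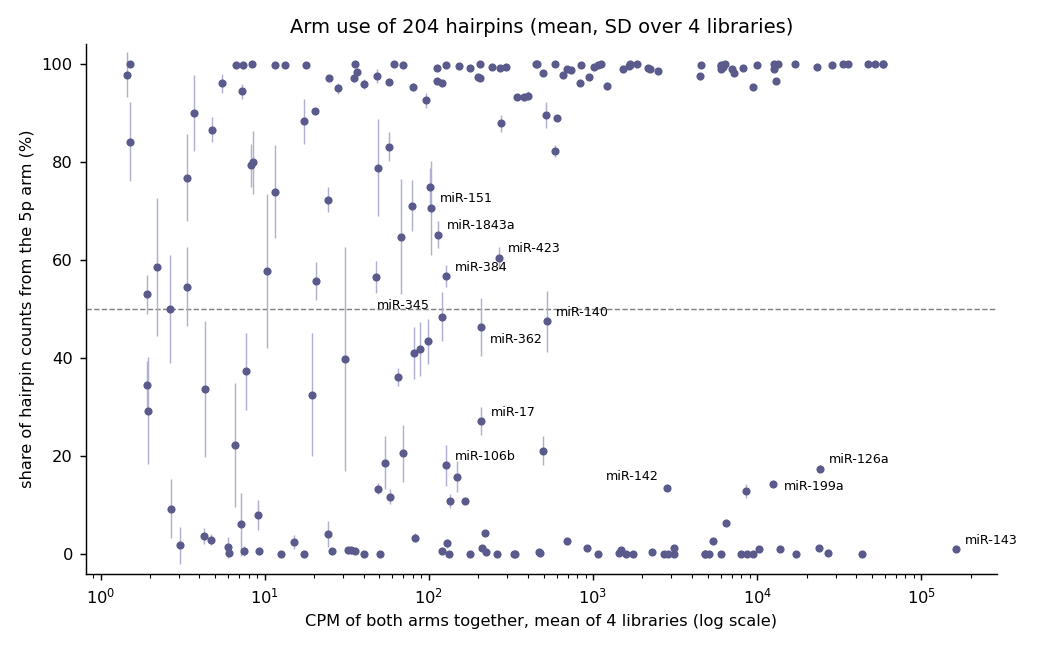
Share of each hairpin's counts from the 5p arm in percent, against the CPM of both arms on a log axis, for 204 hairpins; points are means and whiskers the SD over 4 libraries, and the dashed line marks 50%. Most points lie near 0% or 100%, while miR-140, miR-362 and miR-345 lie near the line.

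Cell-type miRNAs were summed over all listed arms of 14 lists. In bulk tissue a lower sum from fewer cells of a type and from less RNA per cell cannot be told apart, and lists of different miRNAs do not rank cell numbers. The smooth muscle list (miR-143 and miR-145) was the highest at 219317, 205976, 172601 and 142322 CPM, a mean of 185054 ± 34606 CPM or 18.5% of counts. Library 1 was 1.54-fold above library 4. The 2 hairpins lie together at chr18:57369983-57371453 on the minus strand (GRCr8), and miR-143-3p was 7.01 ± 0.77 times miR-145-5p.

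Epithelium was represented by several lists. The miR-200 family, which holds cells in an epithelial state by repressing the ZEB factors, summed to 68184, 78550, 84450 and 84841 CPM (79006 ± 7768, 7.90% of counts), with library 1 lowest. All 5 of its hairpins were listed, and 8 of its 9 arms reached 10 CPM in every library. The gastric and endocrine list, mainly miR-375 and miR-7, summed to 23429 ± 4049 CPM. Its leading member miR-375-3p stood at 14776, 19153, 14486 and 20871 CPM, with libraries 2 and 4 above libraries 1 and 3. The same 2 libraries were the higher ones for miR-7a-5p (5593, 6560, 5018 and 6873 CPM), and the ratio of miR-375-3p to miR-7a-5p was 2.87 ± 0.17. Both miRNAs are known from hormone-secreting cells.

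The intestinal-type list (miR-192, miR-194 and miR-215), known from absorptive gut epithelium, summed to 9068, 11367, 16318 and 12854 CPM, lowest in library 1 and highest in library 3. miR-194-5p (6379 ± 1586 CPM) and miR-192-5p (5948 ± 1434 CPM) kept a ratio of 1.07 ± 0.02. A copy of each lies at chr1:212994024-212994318 on the plus strand (GRCr8). Their relative miR-215 stood at only 7.12 ± 1.40 CPM. The miR-183 cluster, found in sensory and other epithelia, summed to 5236 ± 889 CPM and was led by miR-182 with 2682 ± 442 CPM.

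The squamous list summed to 10731 ± 1636 CPM. Its members are typical of stratified epithelium, which in rats also lines the forestomach. miR-205 stood at 6551, 3669, 3850 and 3799 CPM and miR-203a-3p at 3167, 1272, 1423 and 1174 CPM. Library 1 was above all others for both, and without it their means were 3773 ± 93 and 1290 ± 125 CPM. Another member of the list went the other way: miR-31a-5p stood at 3162, 4170, 5270 and 4917 CPM, lowest in library 1. Whether the amount of forestomach lining differed between samples was not tested.

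Among the other cells of the wall, the endothelial miR-126 list summed to 24212 ± 1630 CPM, between 22712 and 25755 in the single libraries. The fibroblast list (miR-199a, miR-214 and miR-140) was the steadiest with 13112 ± 510 CPM, led by miR-199a-3p at 10758 ± 516 CPM. The skeletal and cardiac muscle list summed to 8811 ± 1433 CPM and was lowest in library 4, as the smooth muscle list was. It consisted mostly of miR-1b at 7581 ± 1271 CPM, which differs from miR-1-3p (304 ± 65.0 CPM) at 1 base, so these 2 are uncertain singly. miR-133a-3p stood at 677 ± 97.2 CPM. Like miR-1b and miR-1-3p it was lowest in library 4. miR-499-5p went the other way, at 148, 142, 156 and 159 CPM in libraries 1 to 4 (151 ± 7.67), highest in library 4. miR-208a-5p had no count. Its 3p arm and miR-208b are not among the named miRNAs, so the data say nothing on them. The neuronal list summed to 581 ± 85.7 CPM, led by miR-9a-5p (322 ± 52.4 CPM) and miR-137-3p (133 ± 25.7 CPM).

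Leukocyte miRNAs were present at moderate levels and summed to 4697 ± 441 CPM. miR-142-3p, made across blood cell lineages, stood at 2948, 2186, 2320 and 2335 CPM, highest in library 1. The lymphocyte miRNA miR-150-5p stood at 879, 821, 1269 and 1298 CPM, with libraries 3 and 4 above the other pair. The myeloid miR-223-3p stood at 465 ± 52.8 CPM. Erythroid miRNAs were far lower: the list summed to 70.6, 43.5, 170 and 76.8 CPM (90.3 ± 55.2 CPM), with library 3 the highest, and to 63.6 ± 17.7 CPM without it. Part of the spread came from miR-144-3p, at 20.6, 3.29, 64.7 and 5.20 CPM, whose mean fell from 23.4 to 9.68 CPM without library 3. In contrast its partner arm miR-144-5p stayed between 5.45 and 9.26 CPM. miR-451-5p, the dominant miRNA of red blood cells, stood at 13.3 ± 6.66 CPM. The list's leading member miR-486 stood at 26.4, 26.8, 74.1 and 57.0 CPM (46.1 ± 23.6), also highest in library 3.

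Markers of neighbouring organs were low. The liver miRNA miR-122-5p stood at 7.99, 2.51, 11.9 and 4.40 CPM. The pancreas list (miR-216a, miR-216b and miR-217) summed to 13.7, 1.47, 5.76 and 2.42 CPM, a mean of 5.83 ± 5.54 CPM, and to 3.22 ± 2.25 CPM without library 1. miR-217-5p stood at 5.79 CPM in library 1 and between 0.628 and 1.32 CPM in the others, with a mean of 2.13 CPM that was 0.910 CPM without library 1. For miR-216a-5p the means were 3.39 and 2.22 CPM. miR-217-3p had no count in any library.

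**Figure D4:**
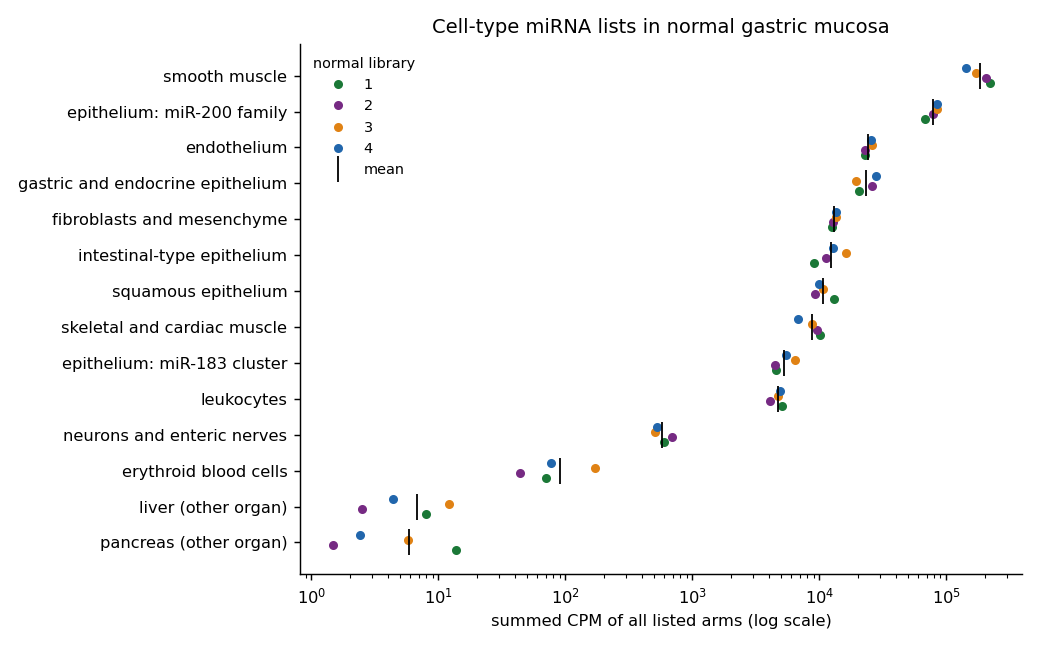
Summed CPM of each cell-type list on a log axis, with 1 point per normal library and a bar at the mean. Smooth muscle (185054 CPM) and the miR-200 family (79006 CPM) lead, and the erythroid, liver and pancreas lists lie at or below 170 CPM with wide relative spread.

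The spread between libraries was wider than counting error for nearly all miRNAs. Over the 275 miRNAs with a mean of 10 CPM or more the median coefficient of variation (CV, the SD as a percent of the mean) was 16.1%, where Poisson counting alone would give a median of 2.72%. It fell with abundance, from 18.8% at 10 to 100 CPM to 16.8% at 100 to 1000 CPM and 12.1% above that, while the counting error fell from 5.22% to 1.95% and 0.393%. A CV under 10% was found in 73 of the 275 and one of 30% or more in 47. Only 6 lay below their Poisson value.

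The steadiest miRNA at 100 CPM or more was the mesenchymal miR-199a-5p at 1807, 1781, 1806 and 1787 CPM, a CV of 0.723% beside a counting error of 0.718%. Next were miR-98-5p (1.74%), miR-3068-5p (2.77%), miR-29c-5p (3.41%), let-7g-5p (3.53%), miR-30a-3p (3.57%), let-7i-5p (4.12%) and miR-26a-5p (4.18%). Of these 8, let-7g-5p, let-7i-5p and miR-98-5p are let-7 family members. Over the 20 most abundant miRNAs the CV ran from 3.53% for let-7g-5p to 27.3% for miR-125a-5p.

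At the variable end, miR-203a-3p had a CV of 53.7%, set by library 1. miR-335 stood at 869, 282, 556 and 393 CPM (CV 48.7%), high in library 1 and low in library 2. miR-708-5p stood at 318, 162, 163 and 128 CPM (44.1%), again high in library 1. miR-34a-5p, known as a target of p53, stood at 526, 673, 349 and 259 CPM (40.9%), with libraries 1 and 2 above libraries 3 and 4. Library 4 was the highest for miR-423-5p (101, 138, 155 and 257 CPM), for miR-320-3p (106, 165, 178 and 261 CPM) and for the inflammation-linked miR-146b-5p (1168, 805, 829 and 1669 CPM). Library 1 was the highest for miR-434-3p, at 192 CPM against 81.9 to 113 CPM.

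Among the 152 miRNAs with a mean of 100 CPM or more, and relative to the median of the other 3, library 1 stood apart most in miR-203a-3p (a log2 ratio of 1.32), miR-335 (1.15) and miR-708-5p (0.98), and library 2 in miR-335 (-0.98), miR-15b-5p (-0.95) and miR-34a-5p (0.95). For library 3 these were miR-135a-5p (-0.84), miR-3553 (0.74) and miR-149-5p (0.71), and for library 4 miR-34a-5p (-1.03), miR-146b-5p (1.01) and miR-423-5p (0.90). Of the same 152, libraries 1 to 4 were the highest for 32, 15, 43 and 62 and the lowest for 50, 42, 23 and 37. Their median log2 ratios to the mean of the others, over 275 miRNAs, were -0.075, -0.075, 0.060 and 0.073. This general shift enters the counts of highest and lowest. Across the 275 miRNAs, Pearson's r of log2 CPM was between 0.983 for libraries 1 and 4 and 0.994 for libraries 1 and 2, as a description over miRNAs that share depth and library. The median absolute log2 difference was 0.157 for libraries 1 and 2 and 0.384 for libraries 1 and 4, the nearest and the farthest pair. Between these farthest libraries 242 of the 275 miRNAs were within 2-fold.

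Ratios between miRNAs of clustered hairpins were steadier than levels in some pairs and not in others. Of the miR-200b, miR-200a and miR-429 hairpins, known as such a cluster, miR-200b-3p was 0.869 ± 0.032 times miR-200a-3p and 1.56 ± 0.07 times miR-429, CVs of 3.64% and 4.18%, while the 3 miRNAs singly had CVs between 9.53% and 13.4%. The 194/192 ratio had a CV of 2.31% where its members had 24.9% and 24.1%. miR-194-5p also has a copy beside miR-215 on another chromosome, so this ratio can mix transcripts of separate loci. miR-182 was 3.94 ± 0.24 times miR-183-5p (6.10%), from the cluster at chr4:59752246-59756153 on the minus strand (GRCr8). A less steady ratio was that of miR-141-3p to miR-200c-3p, 3.89 ± 0.71 (18.1%), whose hairpins both lie at chr4:159209525-159210033 on the minus strand. miR-141-3p itself had a CV of 4.50%, so this ratio varied mostly with miR-200c-3p. No cluster found here within 10000 bases held the miR-16 and miR-15b hairpins. The ratio of miR-16-5p to miR-15b-5p had a CV of 30.3%, between the 9.43% and 35.5% of its members. That of miR-29a-3p to miR-29b-3p had 10.2% beside 5.38% and 10.4%, but miR-29b-3p also has a copy beside miR-29c on another chromosome. A steady ratio was not particular to neighbours, since miR-375-3p and miR-7a-5p, from separate loci, had a ratio with a CV of 5.77% beside 18.4% and 14.3% for their levels. Both arms of miR-144 had the least constant ratio of those computed, between 0.603 and 6.99.

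**Figure D5:**
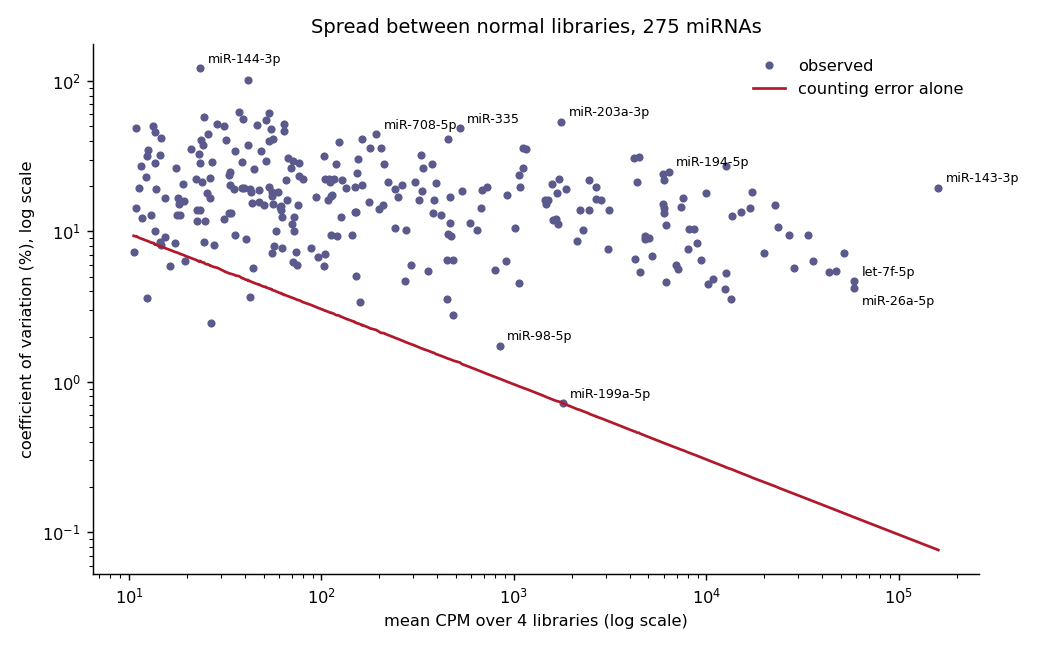
Coefficient of variation in percent over the 4 normal libraries against mean CPM, both on log axes, for 275 miRNAs; the line is the value that counting error alone would give. Nearly all points lie above the line, miR-199a-5p lies on it, and miR-144-3p and miR-203a-3p stand out upward.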

How the data were processed

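Small RNA libraries were prepared from total RNA of gastric mucosa with a QIAseq miRNA kit, per the labels' protocols, for Illumina sequencing. The authors deposited raw, whole-number counts for each mature miRNA. The submitters' processing notes name Bowtie and DESeq. No source used here states the genome build, how reads were assigned, or whether reads or molecules were counted. The CPM columns deposited by the authors were used only as a check and differed from count over column total by at most 4.4e-05. Columns were matched to the 4 normal samples by their labelled descriptions, and 8 columns of other groups were not used. To look for a library deposited more than once, pairs were compared by chi-square with each count taken as independent, and the lowest value was 130.7 per degree of freedom.

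CPM, shares and CVs were computed in Python 3.11.15 (pandas 2.3.3, scipy 1.17.1) with counts divided by the column total, without further scaling. Families share bases 2 to 8 of the RefSeq sequence, and names without a match are outside them. Arm shares needed 10 counts in every library. Intervals are Wilson 95% intervals, a count of 0 allows 3 counts, and both cover counting error only. Hairpins within 10000 bases on a strand were taken as clustered. miRNAs named were the 20 most abundant, the leading members of each list and of the 10 largest families, the most balanced and most one-sided hairpins, and those of largest and smallest CV or farthest from the other libraries. The members, the lists and this rule were chosen with earlier results of these data known. Alternatives were TMM and upper-quartile factors (edgeR 4.0.16 in R 4.3.3), library sizes without the 5 most abundant miRNAs, other minimums, families by name, and leaving out each library in turn. The calculation of spread was tested on simulated counts.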

Additional observations from a re-analysis of the deposited data

Results flagged for a closer look

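In 11 of 122 results, 1 library lay apart from the other 3 by more than Dixon's limit for 4 values. Chance marks about 1 in 20 groups, but some of these miRNAs were named for a wide spread, so the number is not set against chance. Library 1 gave 6 of them, library 4 gave 3, and libraries 2 and 3 gave 1 each.

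Library 1 was the highest for 2 squamous miRNAs, with miR-205 at 6551 CPM (3669 to 3850 in the others) and miR-203a-3p at 3167 CPM (1174 to 1423). It was also the highest for pancreatic miRNAs, with miR-217-5p at 5.79 CPM (0.628 to 1.32), miR-216b-5p at 0.699 CPM (0.0865 to 0.0945) and miR-216a-3p at 0.299 CPM (no count in the others). These rest on few counts: 58 against 7 to 14, 7 against 1 in each other library, and 3 against none. The more abundant miR-216a-5p, at 6.89 CPM in library 1 and 4.35 CPM in library 3, was not marked. Library 1 was the lowest for miR-140-3p, at 233 CPM against 285 to 293.

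Library 4 was the lowest for 2 muscle miRNAs, with miR-145-5p at 17695 CPM (24412 to 24783 in the others) and miR-133a-3p at 533 CPM (706 to 736), and for miR-29c-3p, at 10973 CPM (14180 to 14602). miR-29c-3p differs from miR-29a-3p at 1 base, so its value is uncertain singly. Library 3 had the single count of miR-122-3p, 0.0945 CPM. For this miRNA and miR-216a-3p, counted in 1 library only, the result follows from the zeros. In library 2 the 5p arm gave 0.000452% of the miR-375 hairpin's counts against 0.00196% to 0.00215%, which rests on 1 count against 3 to 5.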

How the results depend on the processing

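TMM and upper-quartile factors lay between 0.947 and 1.04 and kept the same 20 most abundant miRNAs. They moved no mean of the 90 named miRNAs by more than its SD. Factors of this size, rescaled to the mean total, could hardly move a mean over the libraries, so little follows from this. The order of the libraries under these factors was not examined. Leaving out any library kept 19 or 20 of the 20 most abundant miRNAs. Library sizes without the 5 most abundant miRNAs raise every CPM value by construction: miR-143-3p to 258831, smooth muscle to 298635, the miR-200 family to 126504, endothelium to 38806, the gastric and endocrine list to 37557, fibroblasts to 21030, the intestinal-type list to 19793, the squamous list to 17274, skeletal and cardiac muscle to 14204, the miR-183 cluster to 8374, leukocytes to 7541 and neurons to 936. A minimum of 100 CPM left 138 miRNAs, fewer by construction. Without miR-143-3p in the total the let-7 share was 25.5%. With no minimum the median CV was 29.5%, with low-count miRNAs included.

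Leaving out a library moved the pancreas list to between 3.22 and 7.29 CPM, the erythroid list to between 63.6 and 106 CPM, and the mean of miR-143-3p to between 149613 and 172674 CPM. No paired analysis was possible because the results come from no test between groups. Depth limits the 92 partly detected miRNAs that never passed 3 counts and the minor arms with few counts. Shares are relative, so a miRNA's CPM moves with the abundant ones.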
